A study of Sus scrofa with 17 samples.

Results

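The MHC class II antigen presentation genes CIITA, SLA-DRA, SLA-DRB1, SLA-DQA1, SLA-DQB1, SLA-DMA, SLA-DMB, SLA-DOA, CD74 and CTSS were followed in right ventricular myocardium of pigs with pressure overload of the right ventricle. Of these 10 genes, 7 had a row under that symbol among the 35670 rows of the deposited count table, and all 7 passed the filter on low counts that left 15884 genes. SLA-DRA, SLA-DRB1 and SLA-DQA1 had no row under those symbols and were not analysed here under them. A row that the table calls by the human symbol HLA-DRA carries a pig gene identifier that RefSeq names SLA-DRA, the alpha chain of DR, and its values are given beside the members, an addition made after the table was seen. Whole cardiac tissue was sequenced from 17 animals: 7 had umbilical cord blood mononuclear cells injected more than once (multidose), 5 had them once (single dose) and 5 received vehicle (vehicle control), and all carried the pressure overload. The labels give neither the cell number per dose, the time of harvest, the age or sex of an animal, nor the species of the cord blood. Each library is a separate animal according to the series text. The libraries also differ in the names given to them: 4 multidose libraries and 1 single dose library have names that begin with M1, the other 12 have names that begin with M8 or M9, and no vehicle control has an M1 name. What the M1 names mark is not stated in the labels.

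MHC class II molecules are pairs of an alpha and a beta chain that present peptides from endocytosed proteins to CD4+ T cells. CIITA is the transcriptional coactivator that switches the class II genes on, constitutively in dendritic cells, B cells and some macrophages and after interferon gamma in many other cells. The invariant chain CD74 fills the groove of a new class II molecule and guides it to endosomes, the protease cathepsin S (CTSS) trims the invariant chain, the DM heterodimer (SLA-DMA with SLA-DMB) exchanges the remaining peptide for others, and the DO heterodimer (SLA-DOA with its beta chain) restrains DM. In heart muscle, class II is known mainly from resident and recruited leukocytes and, in pigs as in humans, from endothelium. A lower level in such bulk tissue could come from fewer cells of a type or from less RNA per cell, which cannot be told apart here.

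In RefSeq's annotation of the Sscrofa11.1 build, 4 of the rows lie in the class II region of chromosome 7: SLA-DQB1 (ENSSSCG00000001457) at chr7:24969034-24977238, SLA-DMB (ENSSSCG00000001469) at chr7:25119278-25125089, SLA-DMA (ENSSSCG00000001470) at chr7:25133494-25137928 and SLA-DOA (ENSSSCG00000001472) at chr7:25178866-25182665. The row named HLA-DRA (ENSSSCG00000001453) corresponds to SLA-DRA at chr7:24825037-24830650. The other members lie elsewhere, CD74 (ENSSSCG00000033262) at chr2:151402210-151409924, CIITA (ENSSSCG00000007901) at chr3:32171706-32230775 and CTSS (ENSSSCG00000006648) at chr4:98415273-98442952. The annotated span of BRD2, which encodes a chromatin reader, runs from chr7:25096579 to chr7:25162591 and covers SLA-DMB and SLA-DMA. The strand setting of the counting is not given in the sources used here, so reads of these overlapping genes could not be separated. The class II chains are polymorphic and were counted on 1 reference haplotype, so an animal's alleles can change how many of its reads were assigned.

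Library totals ran from 21754800 to 61144663 counts, and those of the M1 libraries (21754800 to 40969168) were mostly below those of the M8 and M9 libraries (40621934 to 61144663). The rarest member, SLA-DOA, had 94 to 665 counts per library, and CD74 had 8375 to 61989. Cardiomyocyte markers were abundant in every library, with a summed 41743 to 75848 CPM (counts scaled to a common library size) over 8 genes. B cell markers were near the floor in all libraries, with a summed 3.22 to 5.87 CPM over 8 genes. Macrophage and monocyte markers summed to 338 to 771 CPM over 16 genes, T cell markers to 9.78 to 43.1 CPM over 9 genes and dendritic cell markers to 25.7 to 47.1 CPM over 8 genes.

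No class II member passed the test for a difference with dosing. In edgeR's quasi-likelihood test with Benjamini-Hochberg adjustment over all 15884 genes, 0 of 7 members passed an adjusted p of 0.05 in multidose against vehicle control, in single dose against vehicle control, or in multidose against single dose, and 0 of 7 had an unadjusted p under 0.05 in any of these comparisons. The background was the same: 0% of all genes passed in each of the 3 comparisons, while 1997, 836 and 335 genes had an unadjusted p under 0.05. DESeq2 called 8, 10 and 0 genes in the same comparisons and limma-voom called 0 in each, and neither called a member. Adjusted p (edgeR) of the members ranged from 0.471 to 0.972 against vehicle control for multidose and from 0.908 to 0.990 for single dose. The median log2 fold change of the 7 members was 0.04, 0.02 and 0.06 in the 3 comparisons, beside medians of all genes of -0.005, 0.002 and 0.002. The groups of animals overlapped for every member in every one of these comparisons. The comparisons with vehicle control share the same 5 control libraries.

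**Figure D1:**
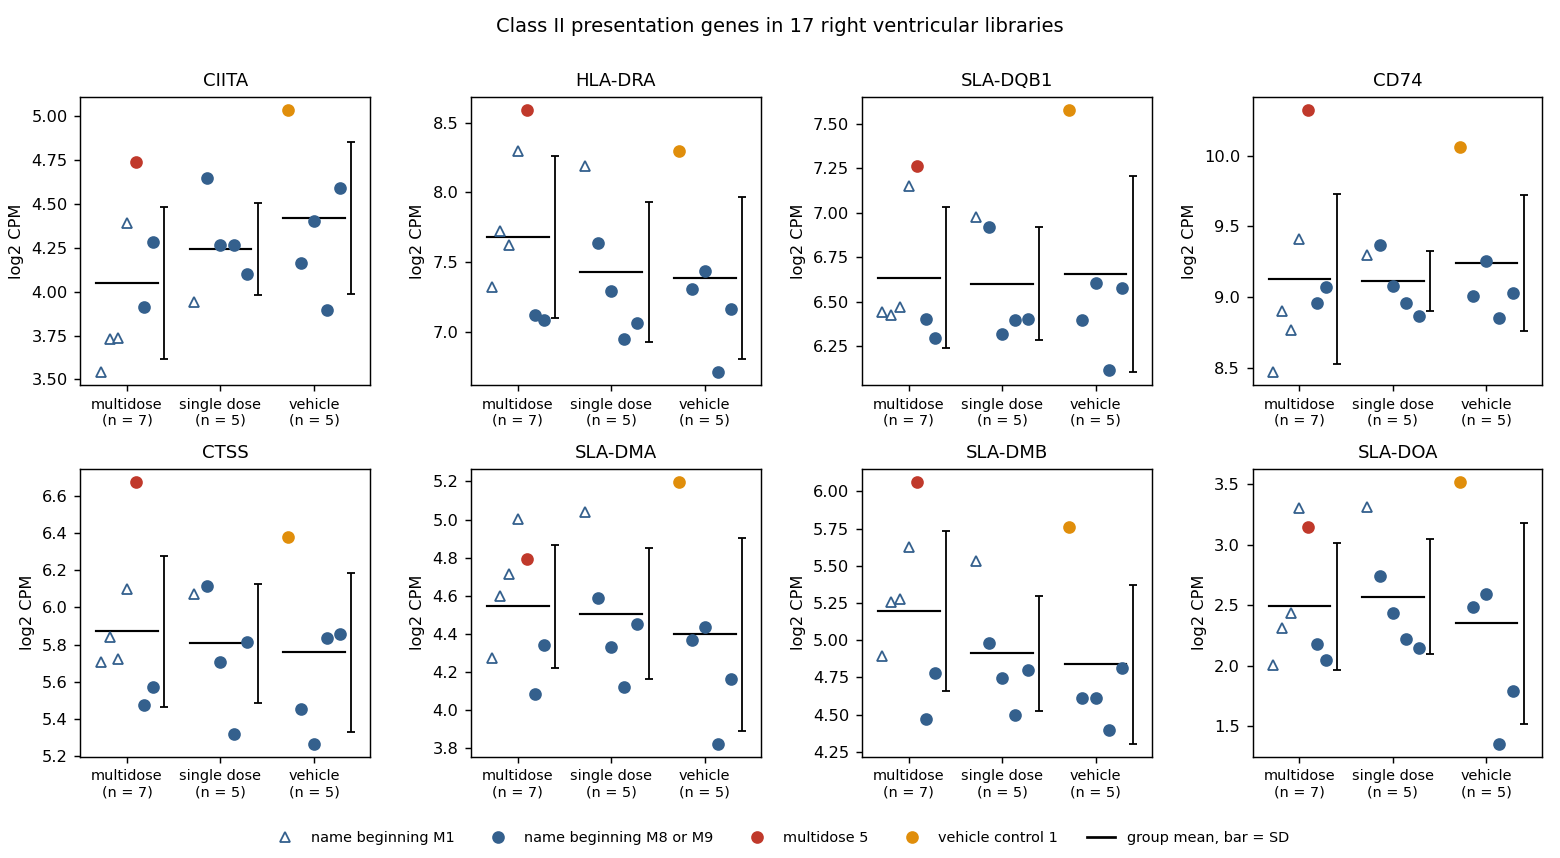
Level of each class II member and of the row HLA-DRA on the log2 CPM axis, 1 symbol per library, with the 3 dosing groups on the horizontal axis. Lines are group means and bars are SD; multidose 5 and vehicle control 1 lie at or near the top of each panel, with CD74 at 1279.9 and 1066 CPM, and the 3 groups overlap.

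The regulator CIITA was at 11.6, 15.0 and 26.7 CPM in the lowest, median and highest multidose library. Its level was 15.3, 24.96, 19.2, 19.2 and 17.1 CPM in single dose libraries 1 to 5 and 32.7, 17.8, 21.1, 14.8 and 24.1 CPM in vehicle control libraries 1 to 5. The values of multidose libraries 1 to 3 lay below every vehicle control, and these are M1 libraries, while the rest of the group lay within the range of the controls. The mean was 17.2 ± 5.41 CPM (SD, n = 7) with repeated doses, 19.2 ± 3.62 CPM (n = 5) with a single dose and 22.1 ± 6.86 CPM (n = 5) with vehicle. Against vehicle control the log2 fold change was -0.36 with repeated doses (SE 0.21, edgeR adjusted p = 0.471), and the 95% interval of the fold ran from 0.571 to 1.06. With a single dose it was -0.21 (SE 0.23, adjusted p = 0.908). This fit leaves room for a decrease of CIITA to 0.571 of the control level or a slight increase, and does not show a difference. It has no term for the library name, although no vehicle control has an M1 name. Among the M8 and M9 libraries the mean was 20.4 ± 5.88 CPM (SD, n = 3) with repeated doses and 20.1 ± 3.38 CPM (n = 4) with a single dose.

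Of the peptide-presenting class II chains, HLA-DRA and SLA-DQB1 had rows. HLA-DRA was at 135, 197 and 386 CPM in the lowest, median and highest multidose library. It was at 292, 199, 157, 123 and 133 CPM in the single dose libraries and at 315, 159, 173, 105 and 144 CPM in the vehicle controls. The level varied 3.69 times between the lowest library, vehicle control 4, and the highest, multidose 5, and each dosing group held at least 1 library at 292 CPM or above and others at 160 CPM or below. The log2 fold change against vehicle control was 0.30 with repeated doses (SE 0.31, edgeR adjusted p = 0.681) and 0.02 with a single dose (SE 0.33, adjusted p = 0.994). SLA-DQB1, the beta chain of DQ, was at 78.5, 87.2 and 153 CPM in the lowest, median and highest multidose library. It stood at 126, 120.9, 79.8, 84.2 and 84.5 CPM in the single dose libraries and at 191, 84.5, 97.5, 69.4 and 95.4 CPM in the vehicle controls. Most libraries lay between 69.4 and 97.5 CPM, and those above were multidose 4 and 5, single dose 1 and 2 and vehicle control 1, so that the high libraries were spread over all groups. Its log2 fold change against vehicle control was -0.06 with repeated doses (SE 0.24, adjusted p = 0.927) and -0.12 with a single dose (SE 0.26, adjusted p = 0.954).

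The invariant chain gene CD74 was at 355, 499 and 1279.9 CPM in the lowest, median and highest multidose library. Single dose libraries 1 to 5 had 629, 662, 539, 498 and 468 CPM, and vehicle controls 1 to 5 had 1066, 515, 609.5, 463 and 523 CPM. Apart from multidose 5 and vehicle control 1, no library exceeded 682 CPM, and the SD of the single dose group, which holds neither, was 83.5 CPM beside 312 and 247 CPM in the multidose and control groups. The log2 fold change was -0.06 with repeated doses (SE 0.28, edgeR adjusted p = 0.944) and -0.18 with a single dose (SE 0.30, adjusted p = 0.929). CTSS, the protease acting on the invariant chain, was at 44.4, 52.7 and 102 CPM in the lowest, median and highest multidose library. It had 67.4, 69.3, 52.2, 39.9 and 56.2 CPM in the single dose libraries and 83.1, 43.7, 38.4, 57.0 and 58.0 CPM in the controls. Its highest values were again in multidose 5 and vehicle control 1, and its spread over the 17 libraries was 2.66 times. The log2 fold changes were 0.12 (SE 0.22, adjusted p = 0.836) and 0.02 (SE 0.23, adjusted p = 0.988).

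The peptide exchange factors SLA-DMA and SLA-DMB are partners in 1 heterodimer. SLA-DMA was at 16.9, 24.2 and 32.1 CPM in the lowest, median and highest multidose library, at 32.8, 24.0, 20.1, 17.4 and 21.8 CPM in the single dose libraries and at 36.7, 20.6, 21.6, 14.1 and 17.9 CPM in the controls. SLA-DMB was at 22.1, 38.3 and 66.9 CPM in the lowest, median and highest multidose library, at 46.1, 31.6, 26.8, 22.6 and 27.8 CPM in the single dose libraries and at 54.1, 24.4, 24.4, 21.0 and 28.1 CPM in the controls. Vehicle control 1 and single dose 1 were highest of their groups for both genes, whereas in the multidose group SLA-DMA was highest in library 4 and SLA-DMB in library 5. SLA-DMB had the most positive fitted difference among the members, 0.36 on the log2 scale with repeated doses (SE 0.28, edgeR adjusted p = 0.578), with a 95% interval of the fold from 0.856 to 1.91. It was 0.18 without multidose 5 and 0.66 without vehicle control 1, and passed the test in neither case. The log2 fold change of SLA-DMA was 0.10 (SE 0.21, adjusted p = 0.858). With a single dose the values were 0.02 for SLA-DMB (SE 0.30) and 0.06 for SLA-DMA (SE 0.23). SLA-DOA, the alpha chain of the DM inhibitor, was at 3.98, 4.93 and 9.82 CPM in the lowest, median and highest multidose library. It was at 9.89, 6.65, 5.35, 4.61 and 4.38 CPM in the single dose libraries and at 11.4, 5.56, 5.996, 2.51 and 3.41 CPM in the controls. It had the widest relative spread of the members, 4.55 times between vehicle control 4 and vehicle control 1, both in the same group, and its log2 fold changes were 0.04 (SE 0.34) and 0.09 (SE 0.36).

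**Figure D2:**
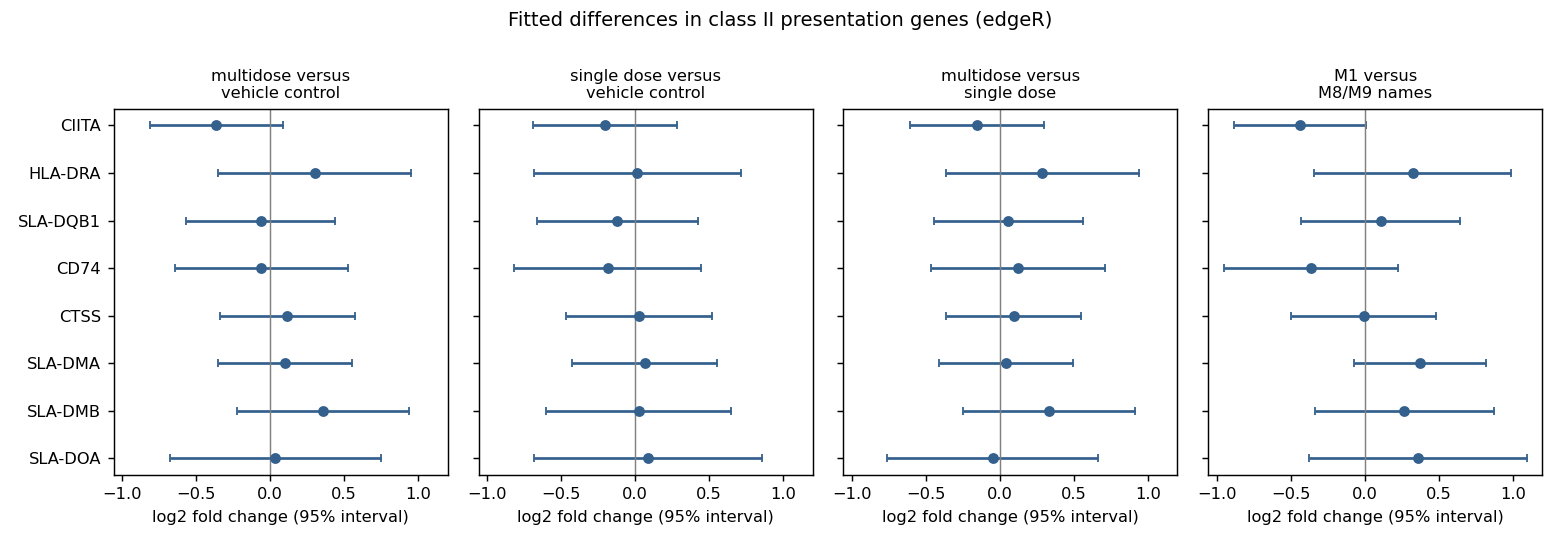
Log2 fold change of each gene (first group minus second, horizontal axis) in the 4 comparisons, with bars for the 95% interval from edgeR's fit. Every interval includes 0, and the interval nearest to leaving it is that of CIITA in the M1 comparison, whose upper end is 0.007.

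Between the library names the members moved in different directions and none passed the test. The M1 libraries were compared with the M8 and M9 libraries within dosing groups, so the vehicle controls informed only the spread. In that comparison 2220 genes passed, 14.0% of those tested, with 940 higher in the M1 libraries (5.92%) and 1280 lower (8.06%), while 0 of 7 members passed and 0 had an unadjusted p under 0.05. The smallest p belonged to CIITA, at -0.44 on the log2 scale (SE 0.21, edgeR adjusted p = 0.173). CIITA was at 11.6, 13.2, 13.3 and 20.9 CPM in the M1 libraries of the multidose group and at 26.7, 15.0 and 19.4 CPM in its other libraries. In the single dose group the M1 library had 15.3 CPM and the 4 others 17.1 to 24.96 CPM. CD74 stood at -0.36 (SE 0.28, adjusted p = 0.401), while SLA-DMA had 0.37 (SE 0.21, adjusted p = 0.246), SLA-DOA 0.36 (SE 0.35, adjusted p = 0.523), HLA-DRA 0.32 (SE 0.31, adjusted p = 0.522) and SLA-DMB 0.26 (SE 0.29, adjusted p = 0.569). SLA-DQB1 and CTSS lay at 0.11 (SE 0.25) and -0.01 (SE 0.23), and the sign of CTSS flipped under upper-quartile scaling. With single libraries left out, HLA-DRA ranged from 0.016 (without single dose 1) to 0.78 (without multidose 5), SLA-DMB from 0.023 to 0.70 and SLA-DOA from 0.081 to 0.66 without the same libraries, and none of the 3 passed. The counts of members that pass here depended on the settings: without multidose 5 and vehicle control 1, libraries left out for these genes' own values, SLA-DMB (log2 fold change 0.71, adjusted p = 0.0110) and SLA-DMA (0.54, adjusted p = 0.0435) passed as higher in the M1 libraries, as did HLA-DRA (0.79, adjusted p = 0.0253). With limma-voom on all 17 libraries the same genes passed. SLA-DMB was at 0.63 (adjusted p = 0.0157), SLA-DMA at 0.52 (adjusted p = 0.0169) and HLA-DRA at 0.62 (adjusted p = 0.0302). CIITA passed with the name term alone. Over all alternatives of this comparison the adjusted p ranged from 0.0110 to 0.979 for SLA-DMB, from 0.0169 to 0.988 for SLA-DMA and from 0.0253 to 0.986 for HLA-DRA.

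The proportion of CD74 to HLA-DRA separated the library names. The ratio of their read counts was 2.22, 2.26, 2.20 and 2.17 in multidose libraries 1 to 4 and 2.15 in single dose 1, the 5 M1 libraries. It was 3.32, 3.59 and 3.98 in multidose libraries 5 to 7, 3.32, 3.43, 4.04 and 3.51 in single dose libraries 2 to 5 and 3.39, 3.25, 3.52, 4.42 and 3.64 in the vehicle controls. The M1 libraries thus kept within 2.15 and 2.26 although the level of CD74 itself varied 1.92 times among them, and the other libraries lay between 3.25 and 4.42, without overlap. Such a ratio does not depend on how libraries are scaled, and across all genes 1.05% had a ratio to HLA-DRA that was lower in every M1 library than in every other. The ratio was singled out after its values were seen, so no test is given. Within both dosing groups that hold M1 libraries the separation was complete. The M1 names move with the library totals and with 14.0% of all genes, and the part of either in the ratio was not tested. The ratio of CIITA to HLA-DRA was 0.0524 to 0.0727 in the M1 libraries and 0.104 to 0.168 in 11 of the other libraries, with multidose 5 at 0.0691 inside the M1 range. The ratio of SLA-DQB1 to HLA-DRA overlapped, at 0.408 to 0.546 in the M1 libraries and 0.398 to 0.683 in the others. CD74 and HLA-DRA were not the only pair to separate. SLA-DMB to CD74 was 0.0724 to 0.0891 in the M1 libraries and 0.0401 to 0.0594 in the others, and SLA-DMA to CD74 was 0.0470 to 0.0602 and 0.0216 to 0.0467, both without overlap. Across all genes 1.18% had a ratio to CD74 that was higher in every M1 library than in every other. Set against HLA-DRA the same genes overlapped, SLA-DMB at 0.157 to 0.196 in the M1 libraries and 0.141 to 0.208 in the others, and SLA-DMA at 0.102 to 0.133 and 0.0718 to 0.164. Ratios of other members to CD74 also overlapped. SLA-DQB1 to CD74 was 0.180 to 0.246 in the M1 libraries and 0.120 to 0.183 in the others. For SLA-DOA to CD74 the ranges were 0.0103 to 0.0157 and 0.00543 to 0.0108, and for CIITA to CD74 0.0244 to 0.0327 and 0.0208 to 0.0460. Some pairs without CD74 or HLA-DRA separated too. Relative to CIITA, SLA-DMA and SLA-DQB1 had more counts in every M1 library than in every other. The nearest libraries for SLA-DMA were multidose 4, with 1352 counts beside 883 of CIITA, and single dose 5, with 1187 beside 931. SLA-DMB, SLA-DOA and CTSS overlapped relative to CIITA. The share of all genes with such a ratio to CIITA was not computed.

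**Figure D3:**
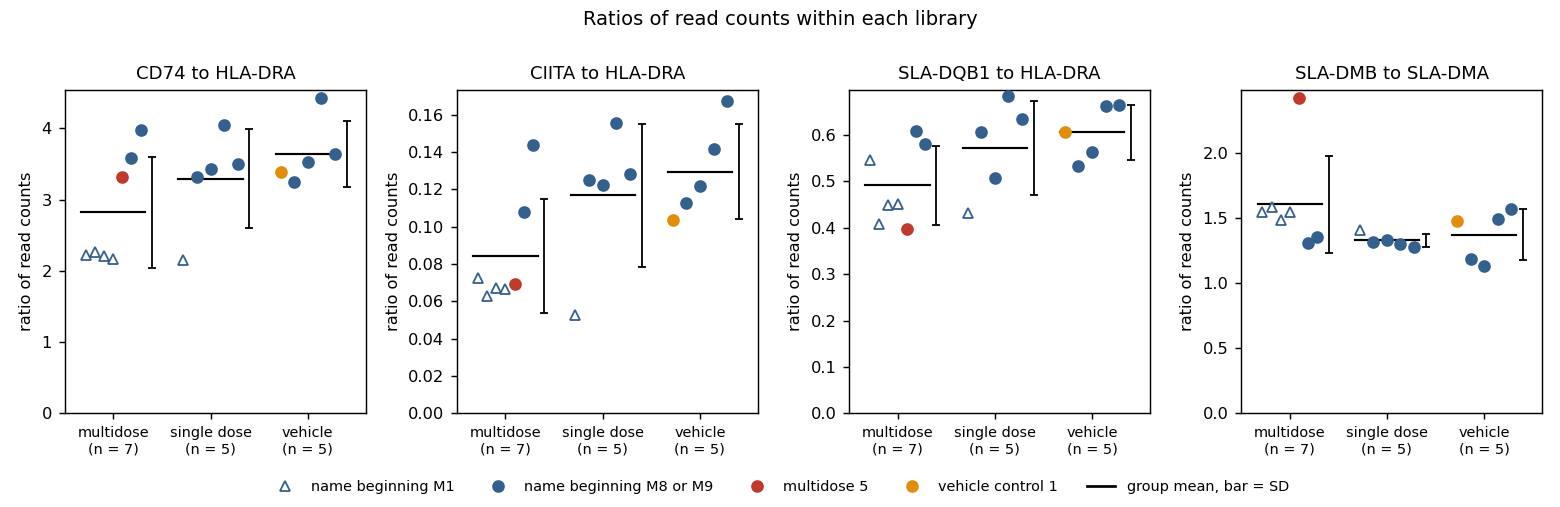
Ratio of read counts of pairs of class II genes within each library, 1 symbol per library by dosing group, with the vertical axis starting at 0, lines for group means and bars for SD. The open triangles of the M1 libraries sit at 2.15 to 2.26 for CD74 to HLA-DRA, below the 3.25 to 4.42 of the others, and multidose 5 stands at 2.42 for SLA-DMB to SLA-DMA.

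The partners SLA-DMB and SLA-DMA kept a narrow proportion in 16 of 17 libraries, with a ratio of read counts from 1.13 to 1.58. Multidose 5 had a ratio of 2.42. The SLA-DMA level of that library, 27.7 CPM, was the fourth of the 17, whereas its SLA-DMB level, 66.9 CPM, was the highest. BRD2, whose annotated span covers both genes, was at 133 CPM in that library and at 105 to 138 CPM in the other 16.

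Class II genes varied together from animal to animal. Over the 12 M8 and M9 libraries Pearson's r between CIITA and 7 other genes was computed on log2 CPM, with permutation p from 100000 resamples and Benjamini-Hochberg adjustment over the 7 relations. The p values set each relation against none, with the 3 dosing groups pooled, and were added after the data were seen. How many of all genes reach such an r with CIITA was not computed. The values therefore do not show a relation particular to class II. For SLA-DQB1 r was 0.90 (adjusted p = 0.00021) and Spearman's rho 0.75 (adjusted p = 0.0118). For CD74 r was 0.82 (adjusted p = 0.00098) and rho 0.91 (adjusted p = 0.00091). The r of SLA-DMB was 0.82 and its rho 0.86, that of SLA-DMA 0.84 with rho 0.73, that of HLA-DRA 0.82 with rho 0.80 and that of SLA-DOA 0.77 with rho 0.67, and the adjusted p of these lay between 0.00098 and 0.0240. CTSS had the lowest r, 0.67 (adjusted p = 0.0172), with rho 0.53 (adjusted p = 0.0802). Vehicle control 1 and multidose 5 were the libraries farthest from the median of CIITA. Without them r was 0.80 for SLA-DQB1, 0.77 for CD74, 0.76 for SLA-DMB, 0.69 for HLA-DRA, 0.60 for SLA-DMA, 0.46 for SLA-DOA and 0.29 for CTSS, so the relation of CTSS, and in large part that of SLA-DOA, rested on those libraries. The M1 libraries are too few for a value of their own. Multidose 1 to 3 had less CIITA than every M8 and M9 library, so no library at a similar CIITA level can be set beside them. Single dose 1 and multidose 4 lay above the M8 and M9 libraries at similar CIITA levels for HLA-DRA, SLA-DMB, SLA-DMA and CD74. For CD74, single dose 1 had 629 CPM beside 463 in vehicle control 4 and 499 in multidose 6. Multidose 4 had 682 CPM of CD74 beside 609.5 in vehicle control 3.

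**Figure D4:**
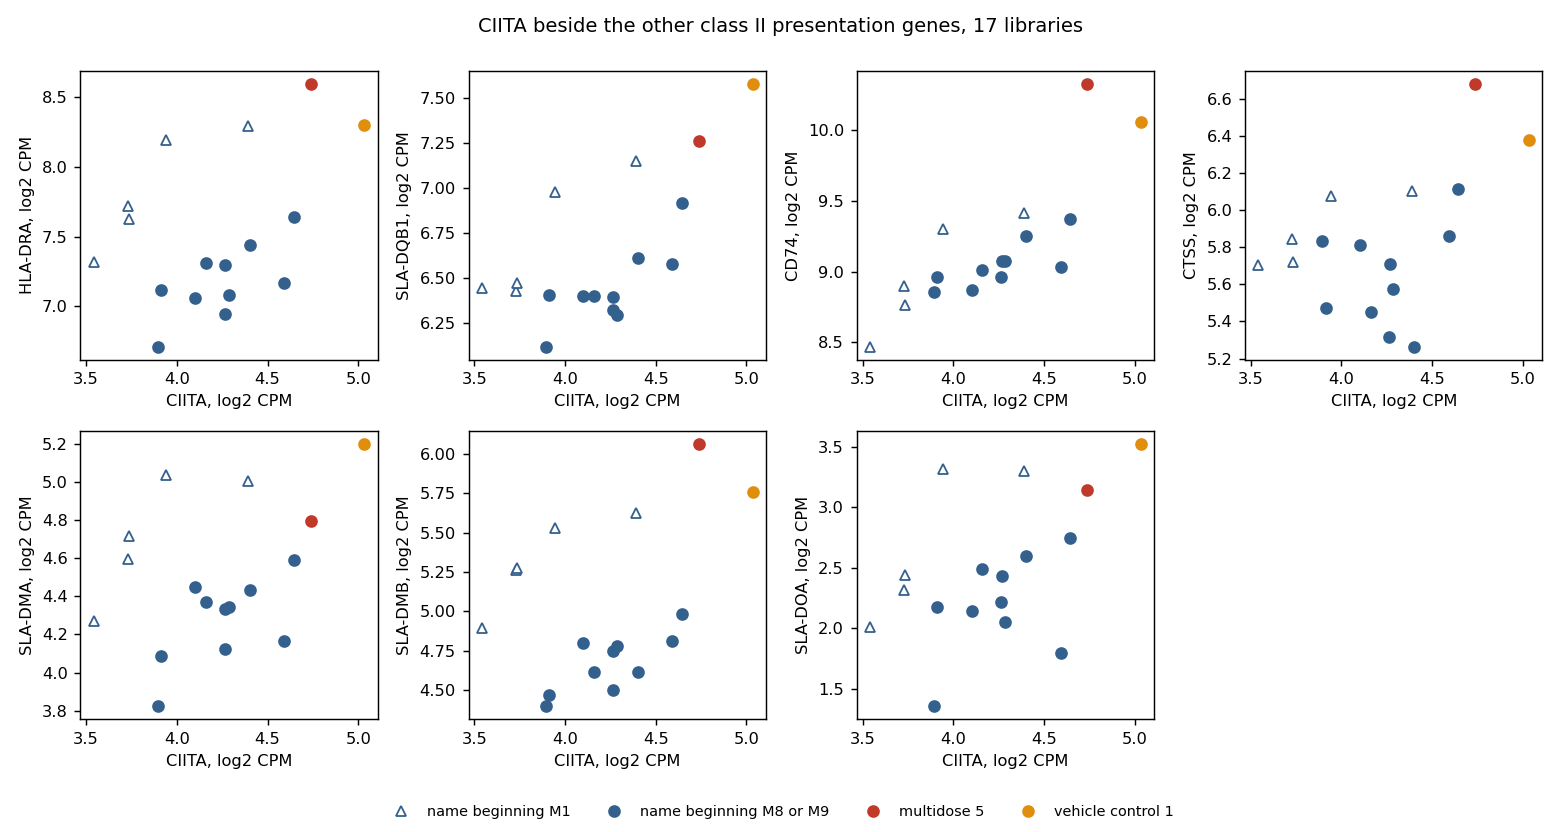
Each panel plots 1 gene (vertical axis, log2 CPM) against CIITA (horizontal axis, log2 CPM), with 1 symbol per library. Filled circles, the 12 M8 and M9 libraries, rise together with r of 0.67 to 0.90, and of the open triangles of the M1 libraries those of multidose 1 to 3 lie to the left, where CIITA is 11.6 to 13.3 CPM, while single dose 1 at 15.3 CPM and multidose 4 at 20.9 CPM lie within the range of the circles.

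The genes most like the members over these 12 libraries, measured by Pearson's r with the mean standardised log2 CPM of the 7 members, were HLA-DRA (r = 0.97), ATP8B4, a phospholipid flippase (0.92), PDCD1LG2, the checkpoint ligand PD-L2 (0.92), TRIM38, a ubiquitin ligase of innate signalling (0.91), and RIMS2, a scaffold protein of secretory vesicles (0.90). Over all 17 libraries the first 3 stayed closest, at 0.92, 0.88 and 0.85, while TRIM38 was at 0.79 and RIMS2 at 0.44. RIMS2 was itself higher in the M1 libraries (log2 fold change 2.62, edgeR adjusted p = 0.0155). The order depended on the measure. By Spearman's rho over the 12 libraries, ATP8B4 had 0.63 and TRIM38 0.64, while HLA-DRA had 0.85 and PDCD1LG2 and RIMS2 0.80. PSMB9, lower by r, had a rho of 0.88.

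Multidose 5 and vehicle control 1 stood apart from the other 15 libraries in class II. The summed level of the 7 members was 1666 CPM in multidose 5 and 1475 CPM in vehicle control 1, against 558 to 1004 CPM in the others. Vehicle control 1 lay above all 15 for 7 of 7 members and multidose 5 for 5 of 7, the exceptions being SLA-DMA and SLA-DOA, which were higher in multidose 4 and single dose 1. These libraries were picked by the members' own levels, so those counts are a description. Over all tested genes, multidose 5 lay above the other 15 libraries for 13.3% and vehicle control 1 for 8.40%. HLA-DRA was also highest in these libraries, at 386 and 315 CPM against at most 314. The DO beta chain has a row under the human symbol HLA-DOB, near the floor at 13 to 61 counts per library. HLA-DOB did not follow: it ranked 3 of 17 in multidose 5 (1.12 CPM) and 12 of 17 in vehicle control 1 (0.602 CPM).

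Genes outside the class II set were also high in these animals, in part the same ones. The interferon-induced transcription factor IRF1 was at 48.5 CPM in multidose 5 and 40.1 CPM in vehicle control 1 against at most 34.1 in the other 15 libraries, and the GTPase GBP1 at 152 and 98.7 CPM against at most 55.5. Of the interferon axis 7 of 15 genes lay above all 15 others in multidose 5 and 6 of 15 in vehicle control 1. In multidose 5, 10 of 11 class I presentation genes lay above all 15 other libraries: the peptide transporter TAP1 at 243 CPM against 26.2 to 53.5, the class I light chain B2M at 687 CPM against at most 271, and the immunoproteasome subunits PSMB8 at 122 and PSMB9 at 49.3 CPM against at most 33.8 and 14.7. In vehicle control 1, 7 of 11 did so, with TAP1 at 69.6 and B2M at 303 CPM. The interferon-induced chemokine CXCL10 was at 539 CPM in multidose 5 against a median of 21.4 and at most 227 CPM, the latter in vehicle control 4. CIITA in multidose 5 was 1.49 times the median of the 15, while CD74 was 2.49 times and SLA-DMB 2.41 times. In vehicle control 1 CXCL9 was at 67.0 CPM, 4.51 times the median, and IDO1, an interferon-induced tryptophan catabolic enzyme, at 6.21 CPM, 15.2 times. The cytotoxic T cell marker CD8A stood at 11.4 CPM there against at most 7.30 CPM, the activating receptor gene KLRK1 at 11.6 against at most 6.43 and the leukocyte antigen PTPRC at 35.1 against at most 24.0. In that library 6 of 9 T cell markers and 5 of 7 natural killer cell markers lay above all 15 other libraries, and 2 of 9 and 3 of 7 did so in multidose 5. Macrophage and monocyte markers did so for 7 of 16 genes in vehicle control 1 and 4 of 16 in multidose 5. Among these the complement subunit gene C1QB was at 138 and 166 CPM against at most 111, and C1QC at 152 and 175 CPM against at most 137. Other genes of this list were low in multidose 5. ITGAM was at 7.42 CPM there, the lowest of the 17 libraries, and CSF1R, MRC1 and CCR2 each ranked 14 of 17. Relative to the median of the other 15 libraries, the list's median fold was 1.57 in vehicle control 1 and 1.15 in multidose 5. PTPRC in multidose 5 was at 14.8 CPM, under the median of the others. B cell markers lay above the other libraries for 0 of 8 genes in either animal, and their sums were 5.37 and 5.45 CPM. Interferon gamma itself (IFNG) was at 0.603 CPM in multidose 5 and 0.447 CPM in vehicle control 1, against at most 0.491 CPM. Endothelial markers summed to 779 CPM in multidose 5, the lowest of the 17 libraries, and to 1478 CPM in vehicle control 1, the highest. Cardiomyocyte markers summed to 71715 CPM in multidose 5 and to 41743 CPM in vehicle control 1, the lowest of the 17. The part of these other genes in the class II levels was not tested.

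**Figure D5:**
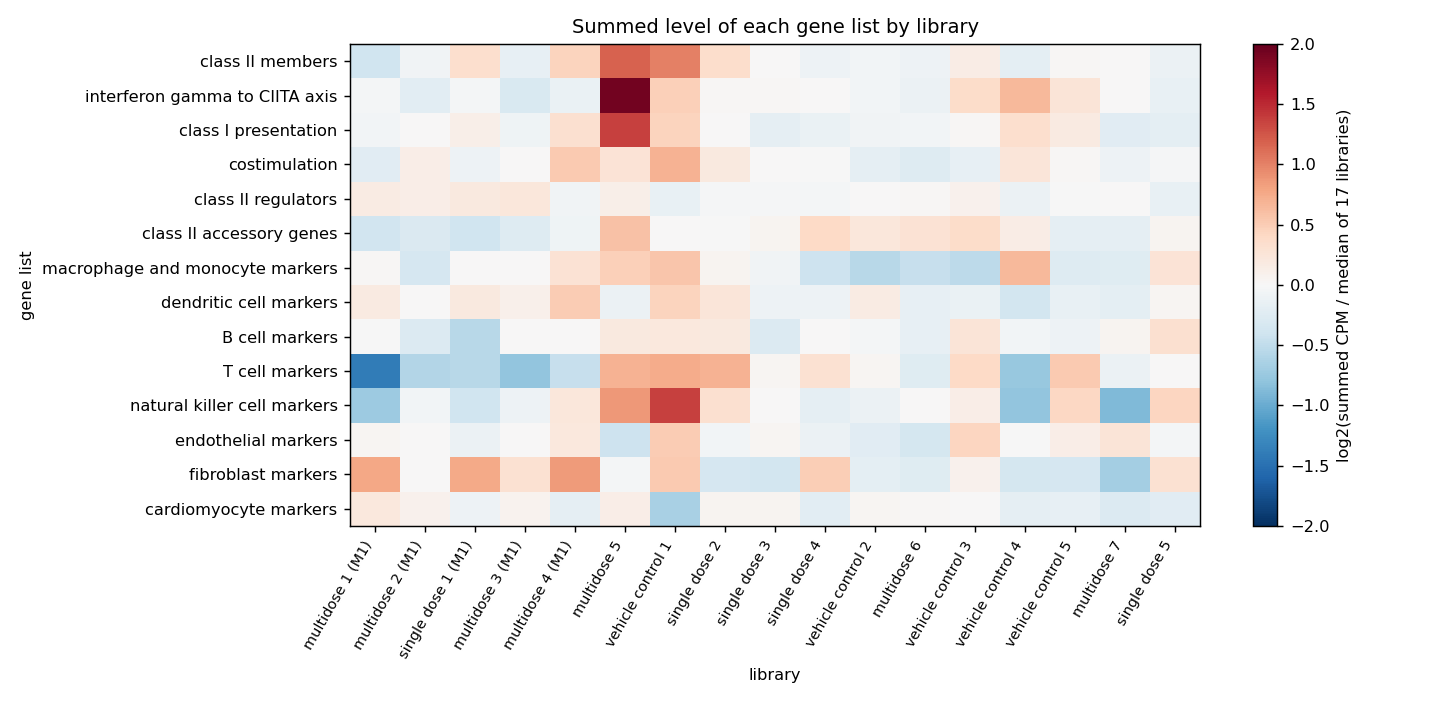
Summed CPM of each gene list in each library relative to the median of the 17 libraries (colour, log2 scale), with libraries on the horizontal axis and lists on the vertical axis. Class II members are highest in multidose 5 and vehicle control 1; the interferon axis and class I lists peak in multidose 5 at 1934 and 2025 CPM, and natural killer cell markers in vehicle control 1 at 79.9 CPM.

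Of the class II regulators other than CIITA, 9 of 10 listed genes were tested, and 0 passed in any dosing comparison. In the M1 comparison HDAC2, a deacetylase, was higher (log2 fold change 0.33, edgeR adjusted p = 0.0329) and 0 of 9 were lower. Over all tested genes 5.92% were higher in that comparison and 8.06% were lower. The subunits of the factor that binds class II promoters stayed close to 0 there, RFX5 at 0.12 (SE 0.18) and RFXANK at 0.004 (SE 0.13). Among 12 tested accessory genes 3 were lower in the M1 libraries and 0 higher: the lysosomal proteases CTSD (-1.26, SE 0.24, adjusted p = 0.00446) and CTSB (-0.60, SE 0.16, adjusted p = 0.0215), and SPPL2A, the intramembrane protease that removes the last CD74 fragment (-0.52, SE 0.17, adjusted p = 0.0457). CTSS, by comparison, had -0.01 (SE 0.23). The smallest p among the accessory genes in multidose against vehicle control was that of AP1M1, a clathrin adaptor (-0.15, SE 0.09, adjusted p = 0.470).

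In the interferon gamma to CIITA list, which also holds interferon-induced genes such as IDO1 and CXCL10, 0 of 15 passed in the dosing comparisons. The smallest p in multidose against vehicle control belonged to IDO1 (-2.52, SE 0.96, edgeR adjusted p = 0.370) and the chemokine CXCL9 (-1.50, SE 0.59, adjusted p = 0.374). In the M1 comparison the same 2 genes were lower, IDO1 with -4.69 (SE 1.16, adjusted p = 0.0156) and CXCL9 with -2.23 (SE 0.46, adjusted p = 0.00743), and 0 of 15 were higher, with a list median of -0.54 beside -0.01 for all genes. Class I presentation had 1 of 11 lower, the peptide-loading chaperone TAPBP (-0.92, SE 0.27, adjusted p = 0.0337), and 0 higher, with a median of -0.45, whereas the median of the class II members was 0.11. Costimulatory genes had 0 of 6 in either direction. Of all tested genes, 8.06% were lower in the M1 libraries and 5.92% were higher.

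Among markers of cell types, 0 passed in any list in the dosing comparisons. The background in the M1 comparison was 5.92% of all genes higher and 8.06% lower. A list with 1 gene passing is therefore not read as a result about that cell type. In the M1 comparison 4 of 8 tested T cell markers were lower, with CD8B, a coreceptor chain, at -2.18 (SE 0.49, edgeR adjusted p = 0.00944) and CD5 at -1.45 (SE 0.35, adjusted p = 0.0127), and 0 were higher. Their summed level was 9.78 to 18.7 CPM in the M1 libraries and 15.3 to 43.1 CPM in the others. Of macrophage and monocyte markers 1 of 16 was higher (CCR2, a chemokine receptor), of dendritic cell markers 1 of 8 (the adhesion molecule CADM1) and of B cell markers 0 of 7, and 0 markers of these lists were lower. Macrophage sums were 392.25 to 605 CPM in the M1 libraries and 338 to 771 CPM in the others. Natural killer cell markers had 2 of 7 higher, NCR1 and KLRB1, but 5 of 7 had a negative log2 fold change and the list median was -0.41. Endothelial markers had 1 of 8 higher, the angiopoietin receptor TEK, and fibroblast markers 3 of 7, with PDGFRA at 1.25 (SE 0.24, adjusted p = 0.00476) and COL3A1 at 1.15 (SE 0.23, adjusted p = 0.00602). Fibroblast sums ran from 4487 to 8123 CPM in the M1 libraries and from 2790.4 to 6439 CPM in the others. Pan-leukocyte genes and cardiomyocyte markers had 0 of 4 and 0 of 8 in either direction. The part of these cell types in the class II levels was not tested.

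The libraries whose class II levels were lowest also differed by gene. Multidose 1, an M1 library, was lowest of all 17 for CD74 and CIITA, at 355 and 11.6 CPM. Vehicle control 4 was lowest for HLA-DRA, SLA-DQB1, SLA-DMA, SLA-DMB and SLA-DOA, at 105, 69.4, 14.1, 21.0 and 2.51 CPM. That control library had the highest summed macrophage and monocyte markers, 771 CPM, in which the scavenger receptor CD163 alone made up 207 CPM against a median of 28.4 CPM over the 17 libraries. Without CD163, an alternative added after the data were seen, the sum was 564 CPM there and was exceeded by vehicle control 1 at 682 CPM, multidose 5 at 658 CPM and multidose 4 at 565 CPM.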

How the data were processed

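Raw counts per gene of 17 libraries were deposited by the authors as 1 table with no normalization. Per the submitters' processing notes, the build was Sscrofa11.1 and the tools were Subread 1.6.2, HISAT2 2.1.0, SAMtools 1.7, Trimmomatic 0.33 and FastQC 0.11.7. How strand was handled, and which annotation was counted, is not given in the sources used here. The counts were fitted with edgeR 4.0.16 (R 4.3.3): filterByExpr, TMM scaling (factors 0.861 to 1.18), 1 coefficient per dosing group over all 17 libraries, a robust quasi-likelihood fit and two-sided tests, adjusted by the Benjamini-Hochberg method over all 15884 genes tested, with a threshold of 0.05. The library name (M1 or M8/M9) was tested by 1 term added to the dosing groups. CPM values use TMM-scaled totals, with a prior count of 2 on the log2 scale. A gene's level is not corrected for its length, so levels were compared between libraries and not between genes. Intervals are 95% intervals of the fit, and counts per library limit the precision of the rarer genes.

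Named genes were all members with a row, the 5 genes most like them, and, of each other list, genes with the smallest p in the M1 comparison or in multidose against vehicle control. List genes are also named for their level, and SPPL2A, RFX5, RFXANK, BRD2 and the genes named in multidose 5 and vehicle control 1 were chosen after their values were seen. The members and lists were chosen with earlier results of these data known. Alternatives were other scaling, other filters, DESeq2 1.42.0, limma 3.58.1 (voom with quality weights), covariates, left-out libraries and a replicate block. Permutation tests of the relations with CIITA and the ratios to HLA-DRA, CD74 and CIITA were added after the data were seen. Sex, weight and batch, named in the series text, were not given per library. Promoter and protein sequences, and the ratios SLA-DRB1 to SLA-DRA and SLA-DQB1 to SLA-DQA1, were not analysed here. Some list genes are not reported here.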

Additional observations from a re-analysis of the deposited data

Results flagged for a closer look

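Outliers were looked for in 75 groups of 5 or 7 libraries (class II genes, ratios between them and summed gene lists, all on the log2 scale), of which 4 held a library far from the others; chance alone gives such a gap in about 1 group in 20. In multidose 5 the log2 ratio of SLA-DMB to SLA-DMA counts was 1.27, while the other 6 multidose libraries lay between 0.38 and 0.66. In the same library the log2 of the summed CPM of the interferon gamma to CIITA axis was 10.92 against 8.69 to 8.99 in the rest of its group, and that of class I presentation was 10.98 against 9.39 to 9.94. In single dose 1, the M1 library of its group, the log2 ratio of CIITA to HLA-DRA was -4.25, while the other 4 lay between -3.03 and -2.68. None of the 24 groups of log2 levels of single class II genes held such a library.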

How the results depend on the processing

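Of 232 recomputed member values per comparison (HLA-DRA included), 213, 197, 209 and 203 kept their direction and their side of the threshold in multidose against vehicle control, single dose against vehicle control, multidose against single dose and the M1 comparison. Adjusted p over these alternatives ranged from 0.202, 0.739, 0.495 and 0.0110 upward. No alternative made a member pass in a dosing comparison. The cause of the moves below was not tested.

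Gene counts in the dosing comparisons moved from 0 to 8 (multidose) and 10 (single dose) against vehicle control with DESeq2, and ran from 0 to 1 when single libraries were left out. In the M1 comparison 2220 genes became 4525 with limma-voom, 3783 with the name term alone and 712 within the multidose group, and 858 to 2745 when single libraries were left out, with 858 without single dose 1, 1247 without multidose 6 and 1450 without multidose 5. Members that passed there went from 0 to 2 with limma-voom (SLA-DMA and SLA-DMB, with HLA-DRA also passing at an adjusted p of 0.0302), 1 with the name term alone (CIITA) and 2 without both multidose 5 and vehicle control 1, an alternative added after the data were seen. Depth limits SLA-DOA most, with as few as 94 counts in a library.

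The replicate numbers did not pair the animals: of 15 same-numbered pairs 4 had correlated deviations over 0.1 (r from -0.22 to 0.41). With a replicate block 1 gene passed in multidose against vehicle control and 11 in the M1 comparison. Under the block, signs turned for SLA-DQB1 (0.12) in multidose against vehicle control, SLA-DOA (0.23) in multidose against single dose, and, in the M1 comparison, SLA-DQB1 (-0.45), SLA-DMB (-0.26), SLA-DOA (-0.42) and HLA-DRA (-0.31).

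Other log2 fold changes that turned sign, at most 0.33 in size among those listed below, passed under no setting. For multidose against vehicle control they were -0.037 for SLA-DOA with the name suffix as covariate; with the M1 name as covariate 0.12 for CD74, -0.11 for SLA-DMA and -0.16 for SLA-DOA; among M8 and M9 libraries 0.27, -0.050 and -0.018 for the same genes; and 0.12 for SLA-DQB1 without both libraries that stand apart. For single dose against vehicle control they were -0.017 for SLA-DMB and -0.030 for HLA-DRA with the suffix, -0.031 for SLA-DMA, -0.049 for SLA-DMB, -0.015 for SLA-DOA and -0.080 for HLA-DRA with the M1 name, and -0.050 for CTSS, -0.097 for SLA-DMA, -0.17 for SLA-DMB, -0.15 for SLA-DOA and -0.23 for HLA-DRA among M8 and M9 libraries. Without both libraries that stand apart they were 0.076 for CD74 and 0.18 for SLA-DQB1. For multidose against single dose they were -0.19 for CD74 and -0.022 for SLA-DQB1 with limma-voom, -0.022 (suffix) and -0.084 (M1 name) for SLA-DMA, 0.011 for CIITA and 0.13 for SLA-DOA among M8 and M9 libraries, and -0.16 for CD74, -0.078 for CTSS and -0.062 for SLA-DQB1 without both. In the M1 comparison CTSS was at 0.038 with upper-quartile scaling, 0.24 with limma-voom, 0.049 with the name term alone, 0.0040 among dosed animals and 0.33 without both, SLA-DQB1 at -0.047 within the multidose group and CD74 at 0.036 without both.

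With single libraries left out, values that turned sign ranged, for multidose against vehicle control, from -0.34 to 0.20 for CD74, -0.053 to 0.29 for CTSS, -0.18 to 0.24 for SLA-DQB1, -0.019 to 0.35 for SLA-DMA and -0.15 to 0.43 for SLA-DOA. For single dose against vehicle control they ranged from -0.27 to 0.076 for CD74, -0.083 to 0.20 for CTSS, -0.24 to 0.18 for SLA-DQB1, -0.090 to 0.31 for SLA-DMA, -0.16 to 0.33 for SLA-DMB, -0.14 to 0.48 for SLA-DOA and -0.22 to 0.31 for HLA-DRA. For multidose against single dose they ranged from -0.16 to 0.22 for CD74, -0.078 to 0.17 for CTSS, -0.063 to 0.16 for SLA-DQB1, -0.053 to 0.19 for SLA-DMA and -0.22 to 0.18 for SLA-DOA. In the M1 comparison they ranged from -0.65 to 0.028 for CD74, -0.15 to 0.32 for CTSS and -0.054 to 0.36 for SLA-DQB1. Of those that kept their sign there, HLA-DRA ranged from 0.016 to 0.78, SLA-DMB from 0.023 to 0.70, SLA-DOA from 0.081 to 0.66, SLA-DMA from 0.24 to 0.53 and CIITA from -0.58 to -0.28.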
